A study of Mus musculus with 9 samples.

Results

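The astrocyte genes described here are 10 genes whose products mark or serve astrocytes: Gfap, Aqp4, Slc1a2, Slc1a3, Aldh1l1, Gja1, S100b, Aldoc, Glul and Sox9. They were chosen by name as genes of the cell type, with earlier results of these data known. They were found by symbol in a table of hypothalamic RNA levels in mice with and without Clic1, the gene of chloride intracellular channel 1. All 10 were among the 14351 genes of the table. None of the 10 passed the test for a difference between Clic1 KO and WT mice. Without 1 KO library that stood apart, the 2 plasma membrane glutamate transporters of astrocytes gave the smallest p-values of the 10, Slc1a2 with a higher and Slc1a3 with a lower mean in KO, and neither passed the adjusted threshold.

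RNA of the hypothalamus of male mice fed normal chow was sequenced, 1 library per mouse. The Clic1 KO group (replicates 2, 4, 6, 8 and 10) carried a deletion of Clic1 in the whole body, so that neurons, glia and peripheral tissues carried it alike, and the WT group (replicates 1, 3, 9 and 11) consisted of littermate controls. The study's methods place these mice on a CD-1 background, whereas the sample labels give the strain as C57b/6J, and no age was given for them in the sources used here. The tissue label reads hypothalamus, although a protocol label names perigonadal adipose tissue.

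The tissue label was checked against marker genes. Hypothalamic neuropeptide genes were present in every library, with Pmch at 199 to 334 and Hcrt at 34.9 to 88.2 normalized CPM (reads of the gene scaled to the size of the library), whereas the adipocyte genes Adipoq, Lep, Plin1, Cidec and Fabp4 were not in the table. Replicate 10 has conflicting labels. Its title and treatment label call it WT, whereas its description and its column in the table carry the K of the KO libraries. It was grouped here as KO by the latter. Clic1 measured 1.43 CPM in replicate 10, inside the range of the other KO libraries (0.733 to 1.93). That value was below the range of the WT libraries (3.58 to 5.52). Clic1 was lower in KO, with a log2 fold change of -1.80 (limma, adjusted p = 0.0153), and with replicate 10 moved to WT its adjusted p was 0.501. Without WT replicate 1, 3 or 9 its adjusted p was 0.0893, 0.0826 or 0.0702, at log2 fold changes of -1.73, -1.80 and -1.74. Replicate 10 also stood apart over all genes. Its Spearman correlations with the other 8 libraries were 0.972 to 0.976 against 0.989 to 0.995 among those 8, and its estimated depth of 20.8 M reads compared with 5.45 to 7.70 M in the other KO and 7.28 to 11 M in the WT libraries. Results on the 10 genes are therefore given with and without it. Values listed library by library follow the order of KO replicates 2, 4, 6, 8 and 10 and of WT replicates 1, 3, 9 and 11. No pair of libraries shared more than 3 identical values over the 14351 genes.

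Astrocytes clear glutamate and GABA from the space around synapses, convert glutamate to glutamine, buffer potassium, move water at the endfeet that wrap blood vessels and pass ions and metabolites to each other through gap junctions. In the hypothalamus they contact the neurons that control feeding. Tanycytes, glia of the wall of the third ventricle, share several of the same marker genes. When tissue is injured or inflamed, astrocytes raise intermediate filament proteins, GFAP among them.

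The 10 genes lie on 7 chromosomes (genome build GRCm38), and none is on chromosome 17, which carries Clic1. The glutamate transporter genes are Slc1a2 (ENSMUSG00000005089, chr2:102658659-102790784, plus strand) and Slc1a3 (ENSMUSG00000005360, chr15:8634124-8710764, minus strand). Glul (ENSMUSG00000026473) is at chr1:153899944-153909723 and Aldh1l1 (ENSMUSG00000030088) at chr6:90486427-90600203, both on the plus strand. Gja1 (ENSMUSG00000050953, chr10:56377330-56402513) and S100b (ENSMUSG00000033208, chr10:76253853-76261159) share a chromosome and the plus strand. Chromosome 11 carries Aldoc (ENSMUSG00000017390, 78322968 to 78327781, plus), Gfap (ENSMUSG00000020932, 102887336 to 102900912, minus) and Sox9 (ENSMUSG00000000567, 112782224 to 112787760, plus).

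Promoter sequences are shown for the transporter pair, whose means lay in opposite directions, and for Gfap and S100b, the most used astrocyte marker and the gene that moved most in replicate 10. Each is the 250 bases before the RefSeq transcription start on GRCm38.p6, written 5′ to 3′ on the gene's strand. Capitals mark, on either strand, the TATA box letters TATAAA, the letters CCAAT of the box of that name and the GC box letters GGGCGG. RefSeq entries were matched for 8 of the 10 genes, with 9 starts because Aldoc had 2. The windows are at chr2:102706188-102706437 for Slc1a2, chr15:8710808-8711057 for Slc1a3, chr11:102897201-102897450 for Gfap and chr10:76253586-76253835 for S100b. The Slc1a2 and Gfap windows fall inside the span that GENCODE gives the gene, and the Slc1a3 and S100b windows lie upstream of it.
Slc1a2: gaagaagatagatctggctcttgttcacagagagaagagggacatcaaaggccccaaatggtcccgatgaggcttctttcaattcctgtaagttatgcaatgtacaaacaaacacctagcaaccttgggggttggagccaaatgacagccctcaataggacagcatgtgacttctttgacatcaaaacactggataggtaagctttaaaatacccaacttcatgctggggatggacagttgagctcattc
Slc1a3: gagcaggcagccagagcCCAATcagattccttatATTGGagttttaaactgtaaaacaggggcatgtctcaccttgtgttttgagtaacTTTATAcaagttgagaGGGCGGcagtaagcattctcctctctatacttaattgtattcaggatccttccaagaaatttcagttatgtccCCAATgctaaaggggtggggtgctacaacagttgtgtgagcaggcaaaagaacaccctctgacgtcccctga
Gfap: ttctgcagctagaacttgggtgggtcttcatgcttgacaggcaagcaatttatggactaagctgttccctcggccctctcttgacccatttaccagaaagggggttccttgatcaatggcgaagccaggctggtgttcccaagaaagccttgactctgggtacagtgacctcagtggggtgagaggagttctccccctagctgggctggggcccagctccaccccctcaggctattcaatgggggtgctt
S100b: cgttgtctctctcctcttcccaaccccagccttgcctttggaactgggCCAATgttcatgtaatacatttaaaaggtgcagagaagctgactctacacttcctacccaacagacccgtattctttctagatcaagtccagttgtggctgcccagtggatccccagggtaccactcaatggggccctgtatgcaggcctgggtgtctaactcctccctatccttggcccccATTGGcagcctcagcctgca
The Slc1a3 window held all 3 motifs, with CCAAT at 3 places, TATAAA on the opposite strand at -161 to -156 and GGGCGG at -145 to -140 from the start. The Slc1a2 and Gfap windows held none of the 3, and S100b held CCAAT letters at 2 places, at -202 to -198 and, on the opposite strand, at -20 to -16. Among the 9 windows, CCAAT was found in 4 (Aldh1l1, Glul, S100b and Slc1a3), GGGCGG in 4 (Aldh1l1, Aldoc, Glul and Slc1a3) and TATAAA in 1. Of the 32851 RefSeq windows of the same length on the chromosomes searched, 33.8% held CCAAT, 32.7% held GGGCGG and 12.4% held TATAAA. The NFI half-site TTGGC, searched for because NFI factors act in astrocyte development, was in 4 of the 9 windows (Aldoc, Glul, S100b and Slc1a2) and in 41.5% of all, and the SOX core ACAAT was in 2 of 9 (Aldoc and Slc1a3) and in 27.7% of all. The STAT letters TTCNNNGAA, with N for any base, were in the windows of Aldoc and Slc1a3 and in 7.02% of all. These matches describe letters and were not tested for factor binding.

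The 10 genes ranged from strongly to moderately abundant. Divided by the length of the principal transcript, the WT levels ran from 373 ± 20.3 CPM per kb for Glul (SD, n = 4), the glutamine synthetase gene, to 10.5 ± 1.04 for Aldh1l1, a 35.4-fold span. Between them, in descending order of WT CPM per kb, stood Aldoc (250 ± 17.3), Slc1a2 (235 ± 12.2), Slc1a3 (166 ± 5.44), Gfap (145 ± 23.8), Gja1 (112 ± 6.41), S100b (80.2 ± 5.70), Aqp4 (45.4 ± 3.62) and Sox9 (22.1 ± 1.39). Neighbours in this order overlapped across the WT libraries for 3 pairs, Aldoc with Slc1a2, Slc1a3 with Gfap, and Gfap with Gja1, and were separate for the others. The estimated reads behind a value ran from 210 for Aldh1l1 to 55384 for Slc1a2, so that counting error alone was at most 6.90% of a value, for the smallest count of Aldh1l1.

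Most of these genes varied little between mice of the same group. The coefficient of variation of the 10 genes had a median of 6.61% in WT, from 3.28% for Slc1a3 to 16.4% for Gfap, beside 7.51% over the 12072 genes averaging 5 CPM or more. In the KO libraries without replicate 10 the median was 4.01%, from 1.97% for Slc1a2 to 8.92% for Gfap, beside 7.03% over those genes. With replicate 10 it was 13.5%, beside 12.2%. Gfap was thus the most variable of the 10 in both groups of 4.

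None of the 10 genes passed an adjusted p of 0.05 in the comparison of KO with WT (limma with Benjamini-Hochberg adjustment over all genes). Over all genes, 41 passed, which is 0.286%, with 20 higher (0.139%) and 21 lower (0.146%) in KO. At an unadjusted p under 0.05 the count was also 0 of 10, beside 6.5% of all genes, and limma-voom on approximate reads called none of the 10 either. Means were higher in KO for 5 genes and lower for 5, and the median log2 fold change was -0.01 beside 0.00089 over all genes. The KO and WT libraries overlapped in all 10 genes, whereas they were separate in 3.41% of all genes. Without replicate 10, 9 of the 10 genes had a lower mean in KO, and the median was -0.06 beside -0.0020 over all genes. None of the 10 then passed the adjusted threshold, beside 0.606% of all genes (0.341% higher and 0.265% lower). At an unadjusted p under 0.05 there were 2 of the 10, beside 10.5% of all genes, 1 of them higher (5.57% of all genes) and 1 lower (4.96%). The groups were then separate in 1 of the 10 and in 6.06% of all genes. In RNA of a whole tissue, fewer astrocytes and less RNA per astrocyte cannot be told apart.

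**Figure D1:**
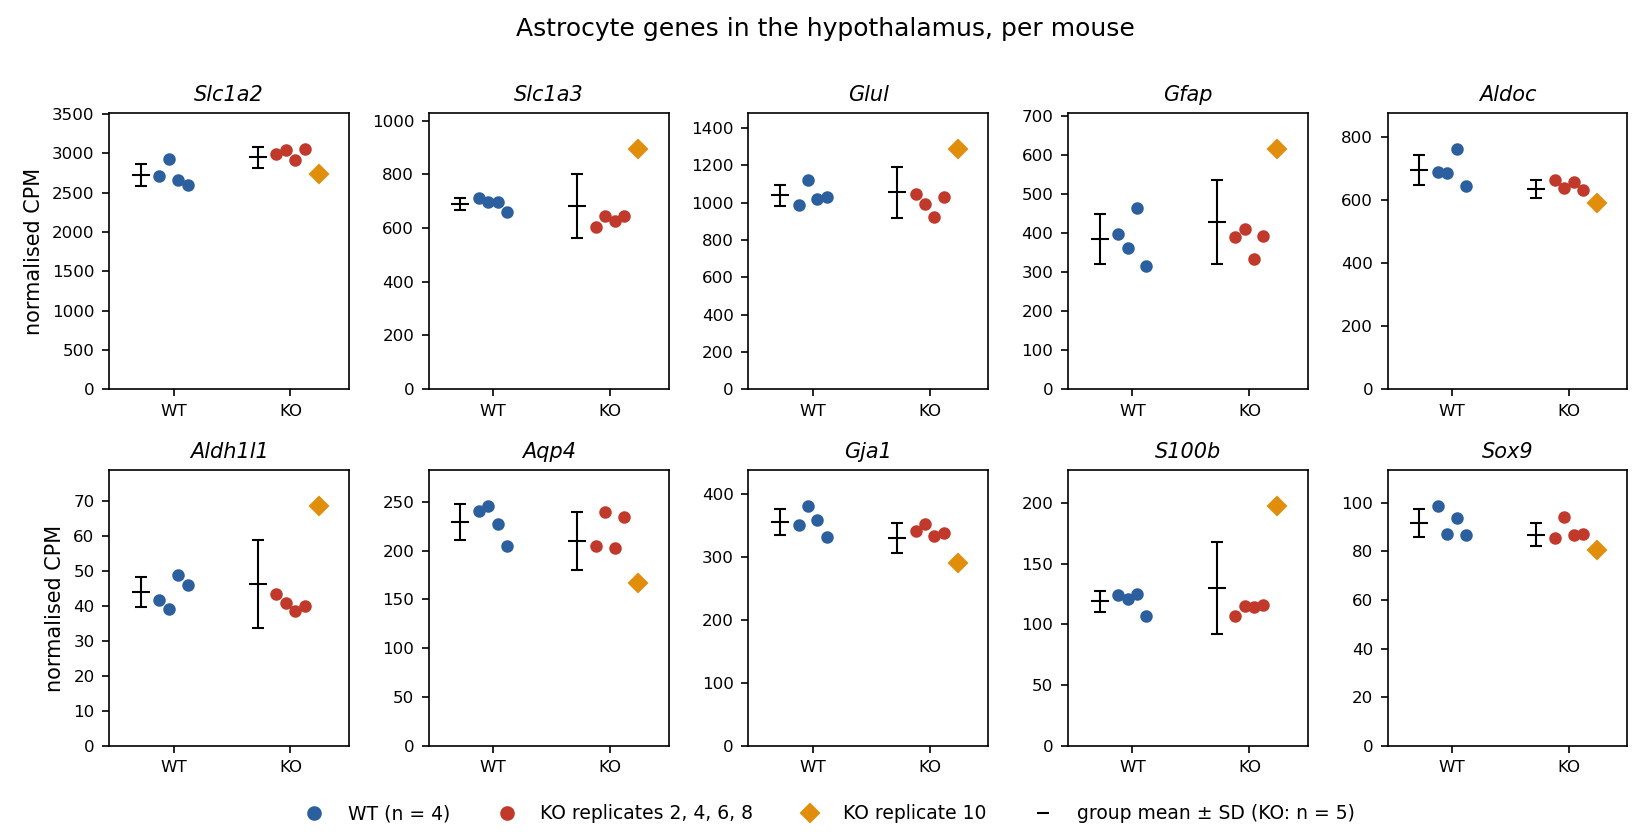
Normalized CPM of each of the 10 astrocyte genes in the 5 KO and 4 WT libraries, 1 panel per gene, with each point 1 library and, beside the points, the group mean and SD. Replicate 10 is marked and lies at the top of all 9 libraries for Gfap, Slc1a3, Aldh1l1, S100b and Glul, and at the bottom for Aqp4, Gja1, Aldoc and Sox9.

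Slc1a2 encodes GLT-1, the main glutamate transporter of the forebrain astrocyte. The 5 KO libraries gave 2999, 3040.3, 2922, 3053 and 2738 CPM, and the 4 WT libraries gave 2712, 2927, 2661 and 2604. Of the KO libraries, replicates 2, 4 and 8 lay above every WT library, replicate 6 lay just below the highest WT library, WT replicate 3, and replicate 10 lay inside the WT range. The mean was 2950.5 ± 129 in KO (SD, n = 5) and 2726 ± 141 in WT (n = 4), a difference of 8.24%. The log2 fold change was 0.11 (95% CI -0.02 to 0.25, limma adjusted p = 0.801), and a two-sided exact permutation test of the means gave p = 0.0476, where 5 against 4 libraries can give no less than 0.0159. Without replicate 10 the log2 fold change was 0.14 (95% CI 0.05 to 0.24, unadjusted p = 0.00634, limma adjusted p = 0.236), and the exact permutation test gave p = 0.0571.

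Slc1a3 encodes GLAST, the other glutamate transporter of astrocytes, which is also strong in radial glia and tanycytes. The 5 KO libraries gave 603, 645, 625, 643 and 893 CPM, and the 4 WT libraries gave 711, 696, 695 and 658. The first 4 of these KO libraries lay below every WT library, and replicate 10 lay above them all. The mean was 682 ± 119 in KO (n = 5) and 690.0 ± 22.6 in WT (n = 4), with a log2 fold change of -0.03 (95% CI -0.26 to 0.19, limma adjusted p = 0.966) and an exact permutation p of 0.905. Without replicate 10 the KO mean was 629 ± 19.8, 8.85% below that of WT. The log2 fold change was then -0.13 (95% CI -0.22 to -0.04, unadjusted p = 0.00623, limma adjusted p = 0.235), and the exact permutation test gave p = 0.0286, the smallest that 4 against 4 libraries allow. Slc1a3 was the only one of the 10 whose groups were then separate, beside 3.19% of all genes that were separate and lower in KO.

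The ratio of Slc1a2 to Slc1a3 CPM was formed after their values were seen, so it is given without a test. It was 4.98, 4.72, 4.68 and 4.75 in KO replicates 2, 4, 6 and 8, and 3.07 in replicate 10. In the 4 WT libraries it was 3.81, 4.20, 3.83 and 3.96. The 4 KO libraries other than replicate 10 thus lay above every WT library, and replicate 10 lay below every one. The sum of both transporters was 3632 ± 61.6 CPM in KO (n = 5), replicate 10 included, and 3416 ± 153 in WT (n = 4), and WT replicate 3, at 3623, lay inside the KO range of 3547 to 3697.

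**Figure D2:**
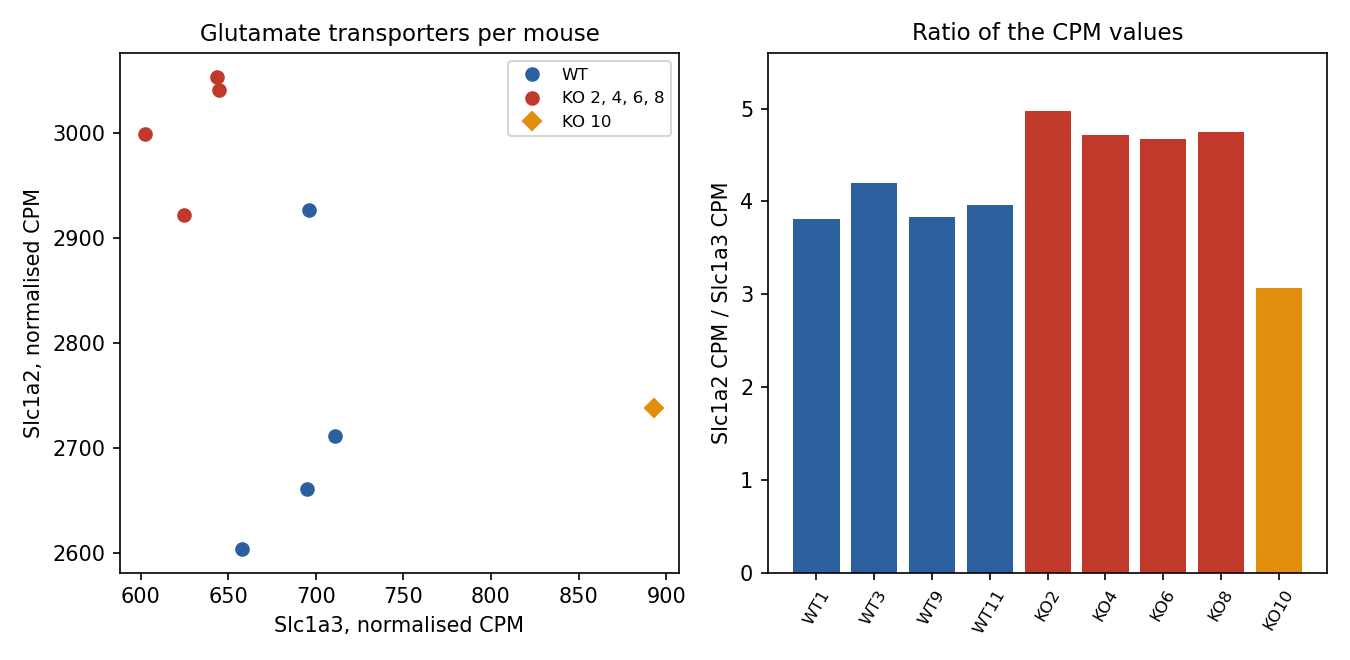
Left, Slc1a2 against Slc1a3 in normalized CPM, each point 1 of the 9 libraries, on axes that do not start at 0. Right, bars of the ratio of Slc1a2 to Slc1a3 CPM in each library, from 4.68 to 4.98 in KO replicates 2, 4, 6 and 8, 3.07 in KO replicate 10 and 3.81 to 4.20 in WT.

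Glul encodes glutamine synthetase, which turns the glutamate taken up by both transporters into glutamine. It ranged from 925 to 1287 CPM in KO and from 989 to 1121 in WT, and the highest of all libraries was replicate 10. The log2 fold change was 0.01 (95% CI -0.18 to 0.21, limma adjusted p = 0.984), and -0.06 (adjusted p = 0.755) without replicate 10. The interval without replicate 10 ran from -0.17 to 0.05. A processed pseudogene that is 96.8% identical to Glul over 1126 nucleotides, Glns-ps1, was not in the table, so reads could have been shared between the copies before deposit. Teddm2 overlaps Glul by 285 bases on the opposite strand and measured 1.60 to 3.09 CPM, far below Glul.

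Gfap encodes the intermediate filament protein by which astrocytes are most often stained. The 5 KO libraries gave 388, 410.0, 332, 393 and 614 CPM, and the 4 WT libraries gave 397, 361, 464 and 314. WT replicate 9 was the highest of the 8 libraries other than replicate 10, WT replicate 11 was the lowest, and the KO libraries lay between them. The mean was 427 ± 108 in KO (n = 5) and 384 ± 62.9 in WT (n = 4), with a log2 fold change of 0.14 (95% CI -0.21 to 0.48, limma adjusted p = 0.892). Without replicate 10 it was -0.0024 (95% CI -0.20 to 0.20, adjusted p = 0.996).

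Aqp4 (ENSMUSG00000024411, chromosome 18) encodes the water channel of the endfoot, and Gja1 encodes connexin 43, the main gap junction protein of astrocytes. Chromosome 18 was left out of the promoter search. Aqp4 measured 205, 239.9, 203, 235 and 167 CPM in the 5 KO libraries against 240.1, 246, 228 and 204 in the 4 WT libraries. Apart from replicate 10, the lowest of all, KO and WT libraries were interleaved. Its log2 fold change was -0.14 (95% CI -0.36 to 0.09, limma adjusted p = 0.857), and -0.06 (95% CI -0.20 to 0.09) without replicate 10. Gja1 ranged from 291 to 353 CPM in KO and from 332 to 381 in WT, with a log2 fold change of -0.10 (95% CI -0.25 to 0.05, limma adjusted p = 0.838), and -0.06 (95% CI -0.16 to 0.04) without replicate 10.

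Aldoc encodes the brain isoform of the glycolytic enzyme aldolase, and Aldh1l1 encodes a dehydrogenase of folate metabolism that is widely used to label astrocytes. Aldoc measured 665, 637, 657, 632 and 590.3 CPM in the 5 KO libraries against 689, 685, 761 and 646 in the 4 WT libraries. WT replicates 1, 3 and 9 lay above every KO library, and WT replicate 11 lay among them. The log2 fold change of Aldoc was -0.13 (95% CI -0.26 to 0.01, limma adjusted p = 0.788), with an exact permutation p of 0.0476, and -0.10 (95% CI -0.21 to 0.00, unadjusted p = 0.0599) without replicate 10. Aldh1l1, the gene of lowest CPM among the 10, ranged from 38.6 to 68.6 CPM in KO and from 39.2 to 49.0 in WT. Its log2 fold change was 0.04 (95% CI -0.29 to 0.38, limma adjusted p = 0.97), and -0.11 (95% CI -0.27 to 0.06) without replicate 10.

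S100b encodes a calcium-binding protein of astrocytes and some oligodendrocytes, and Sox9 encodes a transcription factor that directs glial fate. S100b measured 107, 115, 114, 116 and 197 CPM in the 5 KO libraries against 124, 121, 125 and 107 in the 4 WT libraries. Leaving replicate 10 aside, WT replicates 1, 3 and 9 lay above the KO libraries, and WT replicate 11 lay level with the lowest of them. The log2 fold change of S100b was 0.09 (95% CI -0.25 to 0.42, limma adjusted p = 0.932), and -0.07 (95% CI -0.20 to 0.05) without replicate 10. Dip2a overlaps S100b by 1731 bases on the opposite strand and measured 146 CPM in replicate 10 against 129 to 134 in the other KO libraries and 124 to 145 in WT, so that replicate 10 was level with the highest WT library. Whether the counting used strand was not given in the sources used here. Sox9 ranged from 80.7 to 94.1 CPM in KO and from 86.6 to 98.6 in WT, with a log2 fold change of -0.07 (95% CI -0.22 to 0.07, limma adjusted p = 0.873), and -0.05 (95% CI -0.17 to 0.07) without replicate 10.

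**Figure D3:**
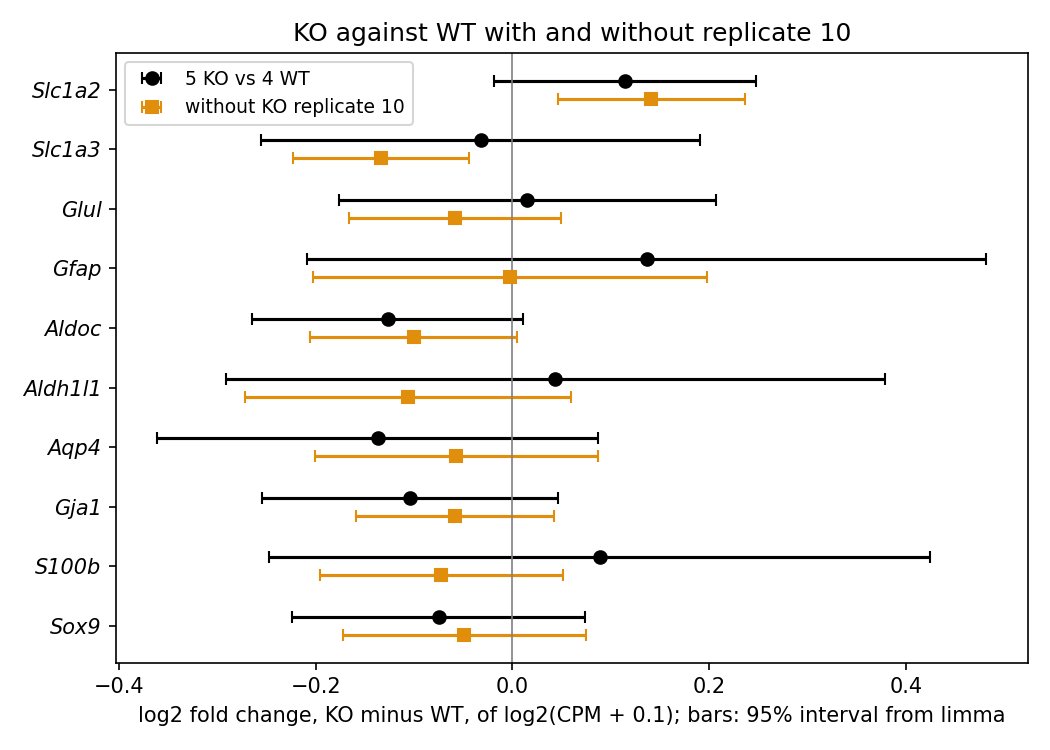
Log2 fold change, KO minus WT, of log2(CPM + 0.1) for each of the 10 astrocyte genes with its 95% confidence interval, with all 9 libraries and without KO replicate 10. With all libraries every interval spans 0, and without replicate 10 those of Slc1a2 (0.05 to 0.24) and Slc1a3 (-0.22 to -0.04) do not.

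Replicate 10 was the highest or lowest of the 9 libraries in 9 of the 10 genes, beside 58.5% of all genes, and each of the other 8 libraries was so in at most 3. Against the mean of the other KO libraries, its CPM was 1.75 times as high for S100b, 1.68 for Aldh1l1, 1.61 for Gfap, 1.42 for Slc1a3 and 1.29 for Glul. It was 0.756 times that mean for Aqp4, 0.852 for Gja1, 0.912 for both Slc1a2 and Aldoc, and 0.913 for Sox9. The astrocyte genes thus did not shift one way together in this library, and markers of the same cell type parted. The 5 genes that were higher had principal transcripts of 1484 to 4175 nucleotides (median 2792) and a median GC content of 49.2%, and the 5 that were lower had transcripts of 2786 to 11595 nucleotides (median 4135) and a median GC content of 45.3%. The part of transcript length, GC content and depth in these values was not tested.

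**Figure D4:**
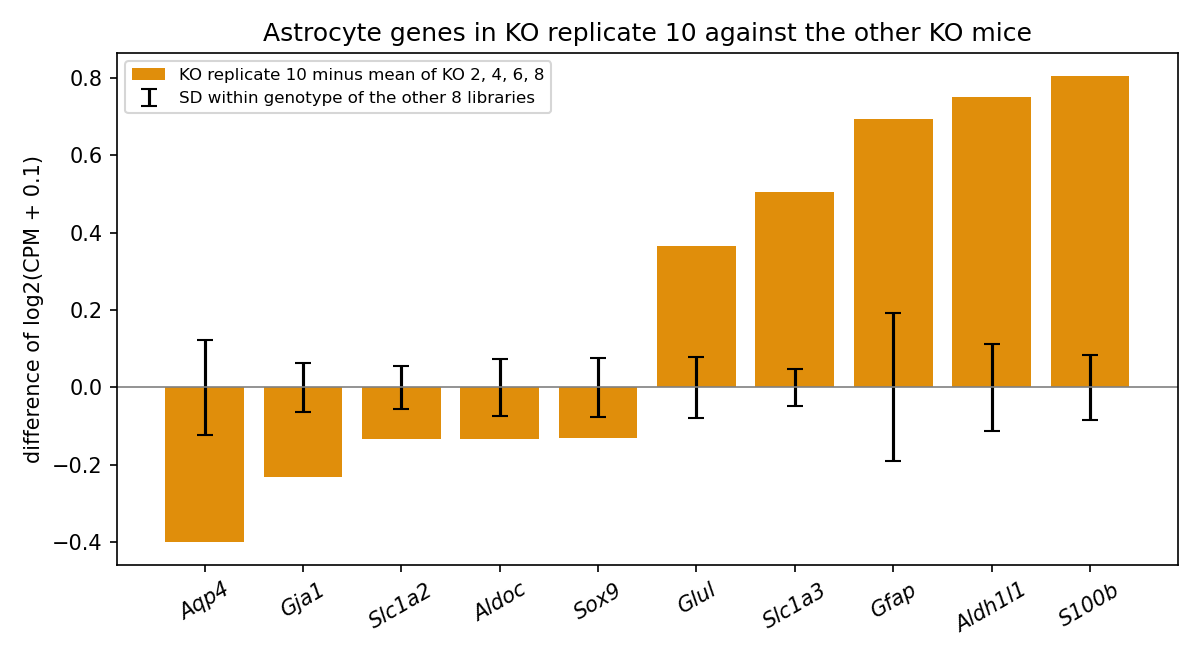
Bars give, for each of the 10 astrocyte genes, the difference of log2(CPM + 0.1) between KO replicate 10 and the mean of the other 4 KO libraries, and the error bars around 0 give the SD within genotype of the other 8 libraries. The bars run from -0.40 for Aqp4 to 0.80 for S100b, with 5 genes below 0 and 5 above, each beyond that SD.

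The directions of several genes rested on the group given to replicate 10. With it in the WT group, as its title has it, 8 of the 10 genes had a lower mean in KO and the median log2 fold change was -0.09. The log2 fold changes of Slc1a2 and Slc1a3 were then 0.14 and -0.21, and the limma adjusted p of each was 0.69. None of the 10 passed the adjusted threshold, beside 0.0348% of all genes, with 2 of the 10 at an unadjusted p under 0.05 beside 6.65% of all genes.

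The wider astrocyte programme and the markers of other cell types were described with 18 further gene lists of 205 distinct genes, 191 of them measured. Over the main comparison, 493 of all genes (3.44%) were higher and 440 (3.07%) were lower in KO at an unadjusted p under 0.05, and the lists are read beside those shares. The partners of the members in glutamate and GABA clearance gave 0 of 10 genes past the adjusted threshold, with 4 higher and 6 lower means, 1 higher at an unadjusted p under 0.05 and a median log2 fold change of -0.07. That direction rested on replicate 10, since the median was 0.02 without it (6 of 10 higher, 2 at an unadjusted p under 0.05) and 0.13 with it as WT (9 of 10 higher). Slc13a3, a sodium-coupled dicarboxylate transporter, had a log2 fold change of 0.65 (limma adjusted p = 0.716), and Slc7a11, the cystine-glutamate exchanger, had one of 0.37 (adjusted p = 0.803). Slc6a11, the astrocytic GABA transporter GAT-3, measured 937 to 1027 CPM in KO replicates 2, 4, 6 and 8, 518 in replicate 10 and 993 to 1089 in WT. Replicate 10 was the lowest library for 7 of these 10 genes, beside 28.3% of all genes.

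Among 12 genes of potassium and water transport and the endfoot complex, none passed the adjusted threshold and the median log2 fold change was -0.07, with 8 lower. The median was 0.0082 without replicate 10 (6 higher and 6 lower) and 0.04 with it as WT (9 of 12 higher). Slc4a4, a sodium bicarbonate cotransporter, had a log2 fold change of -0.14 (limma adjusted p = 0.788). Kcnj10, the inward rectifier that carries potassium into astrocytes, ranged from 644 to 715 CPM in KO replicates 2, 4, 6 and 8 and from 685 to 755 in WT, and measured 495 in replicate 10. Of 8 gap junction genes none passed, with a median of 0.07, Gjb1 at -0.38 (adjusted p = 0.626) and Gjb2 at 0.73 (adjusted p = 0.79).

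The 5 intermediate filament partners of Gfap all had a higher mean in KO, 3 of them at an unadjusted p under 0.05 and none past the adjusted threshold, with a median log2 fold change of 0.31. Synm, which encodes synemin, measured 54.9, 60.8, 55.9, 57.5 and 84.5 CPM in the 5 KO libraries against 53.6, 46.1, 47.5 and 53.0 in the 4 WT libraries. Every KO library thus lay above every WT library for Synm, beside 1.67% of all genes that were separate and higher in KO. The same held for Des, at 1.25 to 1.71 CPM in KO and 0.413 to 1.20 in WT. Des rested on few reads. An estimated 1 read was 0.157 CPM in KO replicate 8, the lowest KO library for Des, so its groups lay less than 1 such read apart. The log2 fold changes were 0.31 for Synm (limma adjusted p = 0.702), 0.81 for Des (adjusted p = 0.688) and 0.55 for Nes (adjusted p = 0.641), the nestin gene. Without replicate 10, which was the highest library for 4 of the 5 genes, the median was 0.20, Synm was at 0.20 (adjusted p = 0.285), and Synm and Des stayed separate, beside 2.86% of all genes that were then separate and higher. With replicate 10 as WT, 3 of the 5 had a higher mean, none was at an unadjusted p under 0.05 and the median was 0.04.

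Of 15 gliogenic transcription factor and Notch genes none passed the adjusted threshold, with a median log2 fold change of -0.04 and 10 lower. The direction turned without replicate 10, to a median of 0.04 with 12 of 15 higher, and with it as WT, to 0.08 with 11 of 15 higher. Sox8, a SOXE factor related to Sox9, was at -0.18 (limma adjusted p = 0.735), and Lhx2 was at -0.27 (adjusted p = 0.828). Of 15 genes of glycogen, lactate and lipid handling none passed, with a median of -0.05. Pygb, a glycogen phosphorylase, was at 0.19 (adjusted p = 0.828) and Fabp7, a fatty acid binding protein of astrocytes and tanycytes, at -0.25 (adjusted p = 0.862). Fabp7 was at -0.42 without replicate 10 (limma adjusted p = 0.155) and at -0.51 with it as WT (adjusted p = 0.515). The median of the list was then -0.05 and -0.08. Without replicate 10, 3 of the 15 were lower at an unadjusted p under 0.05 (20%, beside 4.96% of all genes), and none passed the adjusted threshold.

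Of 30 further astrocyte-enriched genes, 22 had a lower mean in KO, 7 were lower at an unadjusted p under 0.05 (23.3%, beside 3.07% of all genes) and 2 were higher, with none past the adjusted threshold and a median log2 fold change of -0.09. The 3 metallothionein genes, which encode small metal-binding proteins, were among the 7. Mt3 measured 103, 42.3, 129, 86.9 and 137 CPM in the 5 KO libraries against 162, 164, 259 and 155 in the 4 WT libraries, so every KO library lay below every WT library, as in 1.74% of all genes. Its log2 fold change was -0.97 (95% CI -1.61 to -0.33, limma adjusted p = 0.483), and -1.11 (adjusted p = 0.0677) without replicate 10. Mt1 was at -0.22 (adjusted p = 0.745) and Mt2 at -0.48 (adjusted p = 0.657). The others of the 7 were Gpr37l1, Slc39a12, Cldn10 and Agt, with log2 fold changes of -0.33, -0.21, -0.26 and -0.20. Without replicate 10, 12 of the 30 were lower at an unadjusted p under 0.05, beside 4.96% of all genes.

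Pla2g7, which encodes an enzyme that degrades platelet-activating factor, was the gene of this list with the smallest p. It measured 74.7, 81.3, 79.5, 77.6 and 108 CPM in the 5 KO libraries against 61.6, 64.1, 64.6 and 54.8 in the 4 WT libraries, with no overlap. Its log2 fold change was 0.45 (95% CI 0.22 to 0.68, limma adjusted p = 0.206). Without replicate 10 the log2 fold change was 0.35 (95% CI 0.22 to 0.49, limma adjusted p = 0.0125), and with replicate 10 as WT it was 0.19 (adjusted p = 0.812). Pla2g7 lies on chromosome 17, 8.51 Mb from Clic1.

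In the 3 reactive astrocyte lists, with 8, 11 and 8 genes measured, 1 gene passed the adjusted threshold. H2-T23, a nonclassical MHC class I gene, measured 7.74, 6.85, 7.51, 8.44 and 8.08 CPM in the 5 KO libraries against 0.995, 0.83, 1.72 and 1.01 in the 4 WT libraries. It was higher in every KO library, with a log2 fold change of 2.70 (95% CI 2.25 to 3.16, limma adjusted p = 8.71e-05), and lies 0.971 Mb from Clic1 on chromosome 17. Without replicate 10 the log2 fold change of H2-T23 was 2.69 (adjusted p = 2.31e-05), and with replicate 10 as WT it was 2.13 (adjusted p = 0.451). DNA carried along with the deleted allele and the loss of Clic1 itself cannot be told apart in this design. Class I genes are alike in sequence, so reads could have been divided among them. H2-D1 and Psmb8, of the same list and region, had log2 fold changes of 0.13 and 0.08 (adjusted p = 0.9 and 0.983).

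The shared reactive set had a median log2 fold change of 0.15 over 8 measured genes, with Cp, the ceruloplasmin gene, at 0.60 (limma adjusted p = 0.647) and Serpina3n at -0.20 (adjusted p = 0.828). Its median was 0.08 without replicate 10 and 0.06 with it as WT. The set induced by inflammation had a median of 0.09 over 11 genes, which was 0.00031 without replicate 10 and -0.02 with it as WT. The set induced by ischaemia had a median of 0.17 over 8 genes, with Tm4sf1 at 0.21 (adjusted p = 0.828) and S100a10 at 0.18 (adjusted p = 0.862). Its median was 0.27 without replicate 10 and 0.33 with it as WT. In each of the 3 settings 7 of the 8 genes were higher, 1 of them at an unadjusted p under 0.05, and none passed the adjusted threshold. The summed CPM of 10 meningeal fibroblast genes, a list chosen after values were seen, was 252, 339.5, 96.3, 439 and 90.0 in the 5 KO libraries against 103, 102, 239 and 104 in the 4 WT libraries. KO replicates 2, 4 and 8 and WT replicate 9 were high, and the same libraries were high within their group for Cp, at 29.0, 28.3, 15.9, 34.6 and 19.6 CPM in the 5 KO libraries and 16.9, 14.8, 20.8 and 13.1 in the 4 WT libraries. Slc13a3 gave 32.5, 33.0, 22.2, 52.5 and 22.2 CPM in KO and 16.9, 16.4, 32.0 and 16.7 in WT, with the same libraries high. They were also the highest of their group for Gjb2, at 11.7, 17.1, 7.33, 24.6 and 5.79 CPM in KO and 6.42, 5.39, 11 and 6.20 in WT, and for Slc7a11, at 115, 114, 76.9, 137 and 59.4 CPM in KO and 72.0, 72.6, 83.8 and 68.7 in WT. Of the 10 meningeal genes, 9 had a higher mean in KO, 3 at an unadjusted p under 0.05 and none past the adjusted threshold. The part of meningeal RNA in these values was not tested.

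**Figure D5:**
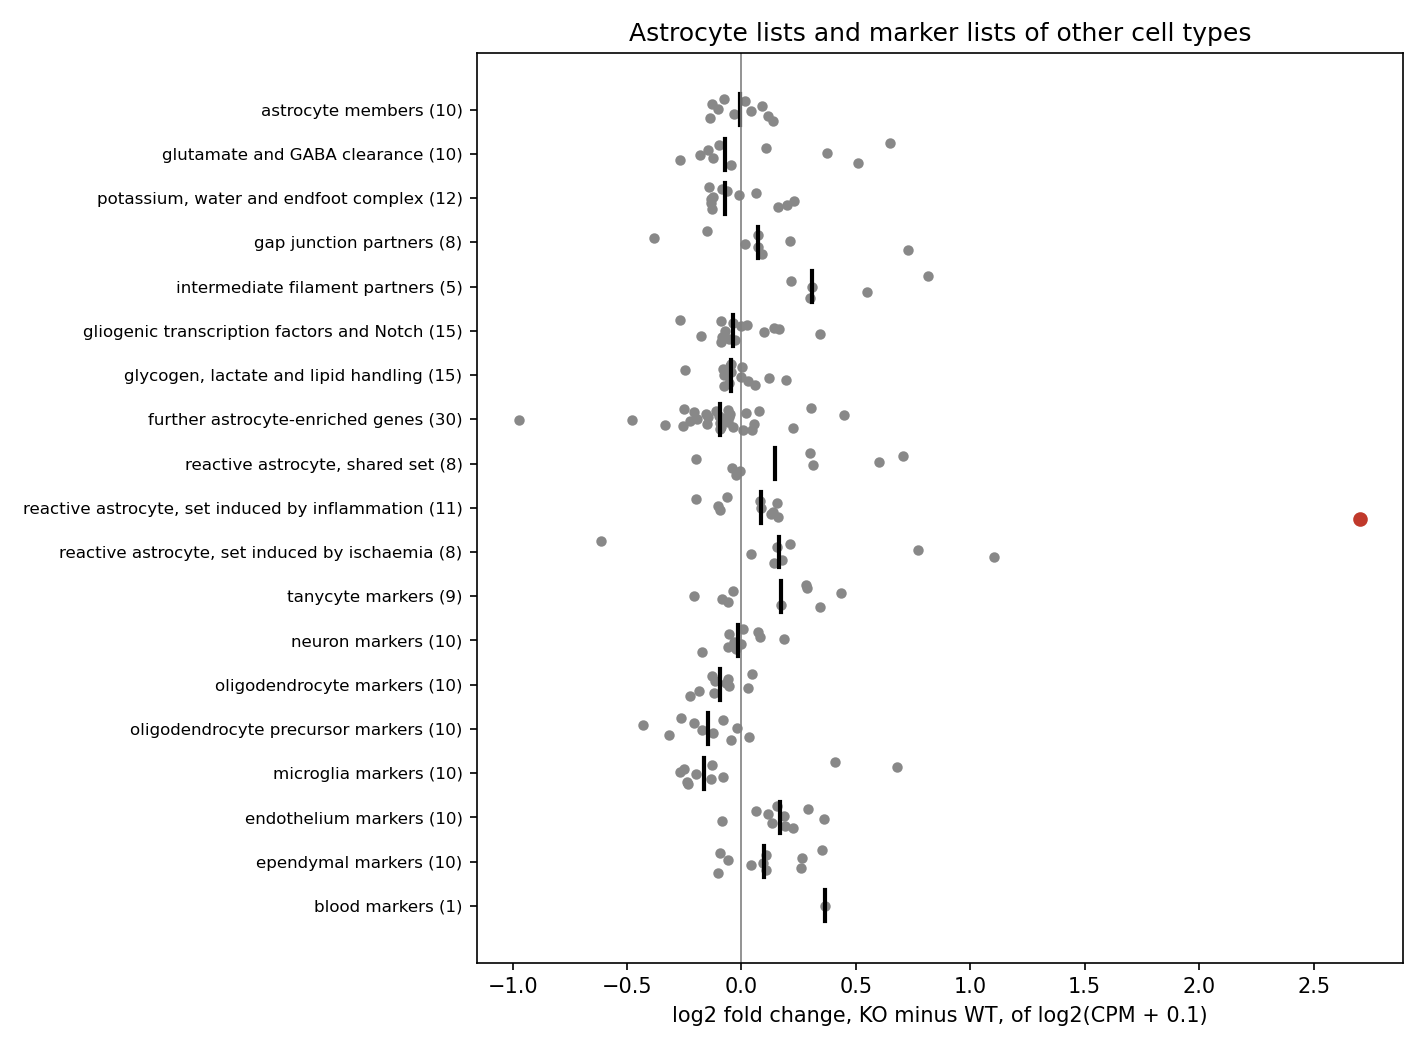
Log2 fold change, KO minus WT, of each measured gene of the astrocyte members and the further gene lists, 1 row per list, with each point 1 gene and a bar at the median of the list. The median of the 10 members lies at -0.01, that of the intermediate filament partners at 0.31 and that of the further astrocyte-enriched genes at -0.09, and the red point is H2-T23 at 2.70, the gene past the adjusted threshold.

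Markers of the other cells of the tissue were read in the same way. No gene passed the adjusted threshold among 9 tanycyte, 10 neuron, 10 oligodendrocyte, 10 oligodendrocyte precursor, 10 microglia, 10 endothelium and 10 ependymal markers or for the 1 measured blood marker, Alas2 at 0.37 (limma adjusted p = 0.648). The medians of the log2 fold changes were 0.17 for tanycyte, -0.01 for neuron, -0.09 for oligodendrocyte, -0.15 for oligodendrocyte precursor, -0.17 for microglia, 0.17 for endothelium and 0.10 for ependymal markers. At an unadjusted p under 0.05, counts were 1 higher tanycyte marker, 1 lower oligodendrocyte marker, 2 lower precursor markers, 2 higher endothelium markers, 1 higher ependymal marker and the higher blood marker. Without replicate 10 the medians of the first 7 lists, in the same order, were 0.13, -0.0044, -0.12, -0.09, -0.10, 0.13 and 0.00018. With replicate 10 as WT they were 0.12, -0.07, -0.11, -0.03, -0.04, 0.07 and 0.05. Without replicate 10, 4 endothelium markers, 1 ependymal marker and the blood marker were higher at an unadjusted p under 0.05, beside 5.57% of all genes. In the same setting 3 oligodendrocyte, 2 precursor and 1 neuron markers were lower, beside 4.96% of all genes, and none of the markers passed the adjusted threshold. The part of tissue composition in the values of the astrocyte genes was not tested.

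Over the 9 libraries, the genes whose log2 levels were most like the mean centred log2 level of the 10 astrocyte genes, among 5019 other genes averaging 50 CPM or more, were Hsbp1 (Pearson r = 0.96, Spearman rho = 0.95), Ccng1 (r = 0.96, rho = 0.97) and Dbi (r = 0.95, rho = 0.95). The points share replicate 10, in which all 3 were above every other library, and without it and KO replicate 6, the libraries farthest from the median, r was 0.88, 0.94 and 0.87. The 3 genes were chosen by r in these same libraries, so their r is high by selection and was not tested. The astrocyte genes parted in replicate 10, so their mean is not a level that all of them share. Dbi encodes an acyl-CoA binding protein that is abundant in glia. It measured 132 CPM in replicate 10, 69.2 to 78.4 in the other KO libraries and 73.6 to 99.3 in WT.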

How the data were processed

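Hypothalamic RNA of 9 male mice was sequenced, 1 library per mouse. Per the study's methods and the submitters' processing notes, the authors checked reads with FastQC 0.11.8, trimmed them with Trimmomatic 0.38, aligned them to GRCm38.p6 with STAR 2.5.1a, estimated gene reads with RSEM 1.3.0, removed genes with low CPM and scaled the libraries by TMM in edgeR. What the authors deposited is a signal per gene and library, their TMM-normalized CPM for 14351 genes. A second deposited table holds the authors' comparison (log2 fold changes, average levels, moderated statistics, p-values and adjusted p-values), of which only symbols were used. There was 1 column, named with the W of the WT libraries, that matched no sample, and it was left out. Reads per library were estimated from the steps between values up to 2.5 CPM, of which 81.3% to 86.6% were whole within 0.03 reads, so depths are approximate, and limma-voom on these approximate reads served only as an alternative.

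Values were fitted as log2(CPM + 0.1) with limma 3.58.1 in R 4.3.3 (intensity trend, condition only), two-sided, with Benjamini-Hochberg adjustment over all genes, as the study modelled condition alone. Fold changes on this scale understate those of low genes. Exact permutation tests of mean CPM used scipy 1.17.1. Scripts were tested on simulated data first. The limma p-values set the difference between group means against the spread between libraries of the same group. The permutation p-values set it against all regroupings of these libraries. Positions and principal transcripts came from GENCODE on GRCm38, near-identical transcripts from blastn 2.17.0 and promoters from RefSeq. The members and gene lists were chosen with earlier results of these data known. Genes named were the members, Clic1, in each list those past the threshold and the 2 of smallest p with a mean of at least 5 CPM, and the 3 genes most like the members. A result for 1 gene under this rule is not reported here. Slc6a11, Kcnj10, Des, Mt1, Mt2, Gpr37l1, Slc39a12, Cldn10, Agt, H2-D1 and Psmb8 were added after values were seen. The alternatives tried were higher pseudocounts, a minimum mean CPM, rescaled libraries, weighted samples, different variance models, replicate 10 moved to WT and each library left out in turn.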

Additional observations from a re-analysis of the deposited data

Results flagged for a closer look

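In 4 of the 10 astrocyte genes, 1 KO library lay farther from the others than Dixon's 95% limit allows, and in each it was replicate 10. Gfap measured 614 CPM in replicate 10 against at most 410.0 in the other KO libraries. Slc1a3 measured 893 CPM against at most 645. Aldh1l1 measured 68.6 CPM against at most 43.5, and S100b measured 197 CPM against at most 116. The test was run on 22 groups, the KO and WT libraries of the 10 genes and of Clic1, and chance flags about 1 in 20 such groups, or 1.1 here, although the genes of 1 library are not independent. No WT library was flagged. Replicate 10 is also the library whose labels conflict and whose estimated depth was the largest.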

How the results depend on the processing

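None of the 10 astrocyte genes passed the adjusted threshold under any alternative, and 175 of 190 recomputed fold changes kept their direction. With replicate 10 as WT the log2 fold change reversed to -0.14 for Gfap, 0.034 for Aqp4, -0.24 for Aldh1l1, -0.22 for S100b and -0.12 for Glul. With sample weights it reversed to -0.0578 for Aldh1l1, -0.0578 for S100b and -0.028 for Glul. Without KO replicate 10 it was -0.0024 for Gfap, -0.11 for Aldh1l1, -0.072 for S100b and -0.058 for Glul. Slc1a3 was at 0.0083 without KO replicate 2, Glul at -0.0092 without WT replicate 1 and Aldh1l1 at -0.011 without WT replicate 3. Leaving out each library in turn moved the log2 fold changes between -0.0024 and 0.23 for Gfap, 0.09 and 0.15 for Slc1a2, -0.13 and 0.0083 for Slc1a3, -0.11 and 0.10 for Aldh1l1, -0.072 and 0.15 for S100b, and -0.058 and 0.061 for Glul, and the median of the 10 between -0.06 and 0.03. Of the further lists 1 gene passed in the main comparison, 0 with a mean of at least 5 CPM required, which removed H2-T23, 0 with replicate 10 as WT, 7 with sample weights (Cp, Slc13a3, Pla2g7, Slc7a11, Mt3, Mt1 and H2-T23) and 1 to 2 when each library was left out, with 2 without KO replicate 10. The causes of the other changes were not tested. The sample weights gave replicate 10 a weight of 0.129, against 0.749 to 2.44 for the other libraries. The share of all genes that passed with these weights is not given here, so whether 7 exceeds it was not tested. Without sample weights, leaving replicate 10 out raised the share of all genes that passed from 0.286% to 0.606%. The adjusted p of Clic1 was 0.0893, 0.0826 and 0.0702 without WT replicates 1, 3 and 9. No scaling moved the median over all genes by as much as 0.1. The KO and WT libraries share no replicate number, and the litter of each mouse was not given in the sources used here. No paired analysis was therefore run. With 5 and 4 mice, differences within the intervals given cannot be resolved.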
